A study of Mus musculus with 10 samples.

Results

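The 10 genes described here encode RNA-binding proteins that act in neurons, though not all of them in neurons alone: Rbfox1, Rbfox2 and Rbfox3, Elavl2, Elavl3 and Elavl4, Celf4 and Celf5, and Nova1 and Nova2. They were chosen by gene symbol in the name field of 2 deposited lists of m6A peaks, in which 8516 genes carry at least 1 peak. Of the 10 genes, 9 had a peak in the wild-type list and 7 in the knockout list, and Elavl4 had none in either. The lists come from m6A-seq of the cortex and hippocampus of mice aged P5 (postnatal day 5), an assay in which an antibody against N6-methyladenosine (m6A) enriches fragments of polyadenylated RNA and the enriched regions are called as peaks against unselected input RNA. The wild-type (WT) group held 3 IP and 3 input libraries, and the group labelled Mettl14 KO held 2 IP and 2 input libraries. In the KO group Mettl14 was deleted by Nestin-Cre, which is active in neural progenitors and their descendants (neurons, astrocytes and oligodendrocytes), so that microglia and vessel cells would keep the gene. The strain and the number of animals behind the libraries are not stated in the labels, and a culture medium is listed for all samples beside the tissue name.

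METTL14 is the partner of the methyltransferase METTL3, and the pair writes most of the m6A in messenger RNA. The proteins encoded by the 10 genes act on RNA in turn. RBFOX proteins bind UGCAUG and control alternative splicing, and RBFOX3 is the antigen NeuN by which neuronal nuclei are stained. The neuronal ELAVL proteins, also called Hu proteins, bind AU-rich and U-rich stretches and affect the stability, splicing and translation of their targets. CELF4 and CELF5 belong to the CELF family, which prefers GU-rich sequence, and NOVA1 and NOVA2 bind clusters of UCAU-like motifs and control splicing of transcripts for synaptic and axonal proteins.

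The comparison asked which m6A peaks of these transcripts were still listed without Mettl14. A WT peak is called retained here when some KO peak of the same strand shared 1 or more exonic bases with it, and lost otherwise. The 10 genes held 29 WT peaks, of which 10 were retained and 19 were lost. The retained share was 34.5% (Wilson 95% interval 19.9 to 52.7), beside 12.9% of all WT peaks in the list. When the WT list was limited to its 3673 strongest peaks, as many as the KO list holds, 8 of the 15 peaks left in these genes (53.3%) were retained, beside 28.6% of that list. Of their 13 KO peaks, 11 lay over a WT peak, which is 84.6% (interval 57.8 to 95.7) beside 57.1% of all KO peaks. A retained peak was found in 5 of the 9 genes with a WT peak (Rbfox3, Elavl3, Celf4, Celf5 and Nova2), beside 20.6% of all genes with a WT peak. Rbfox1 and Nova1 had a peak in both lists but none in common, as did 23.8% of all genes with peaks in both. Rbfox2 and Elavl2 had a WT peak and no KO peak, as did 73.0% of all genes with a WT peak. With 1 list per genotype there is no replicate error for any of these differences. The intervals cover counting error over peaks alone, and peaks of the same gene are not independent. The depth of the libraries is unknown. A peak is called only where enough RNA was sequenced, and in RNA from whole tissue fewer cells of a type and less RNA per cell cannot be told apart.

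**Figure D1:**
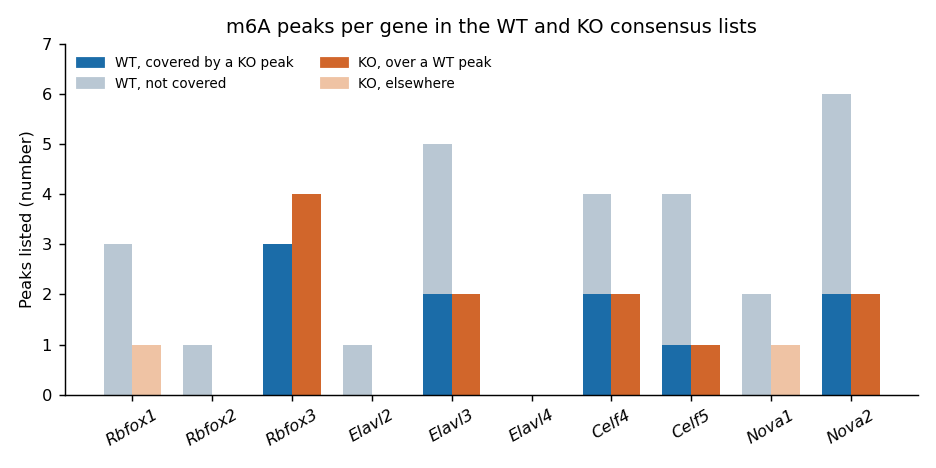
The number of peaks listed (y axis) for each gene (x axis), with the WT list as the left bar and the KO list as the right bar, each split by whether the peak was covered in the other list. Rbfox3 is the only one of the 10 genes with every WT peak covered and with more KO peaks (4) than WT peaks (3), and Nova2 has the most WT peaks (6).

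The number of WT peaks per gene was higher in these genes than in the list at large, with a median of 3 among the 9 genes against 1 among all genes with a WT peak, and a gene with more peaks has more chances to keep 1. All 4 genes with 4 or more WT peaks (Elavl3, Celf4, Celf5 and Nova2) kept at least 1, beside 46.0% of all genes with that many. Of the 5 genes with 1 to 3 WT peaks only Rbfox3 kept any, where the shares over all genes were 10.5%, 22.7% and 33.8% for 1, 2 and 3 WT peaks.

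Under the rule of 1 shared base, the RBFOX genes spanned the whole range, from no to complete retention. Rbfox3 (chromosome 11 from 118489760 to 118911597, minus strand) kept each of its 3 WT peaks. All WT peaks were retained in 6.04% of the genes with a WT peak, and in 7 of the 950 genes with 3 WT peaks, or 0.737%. Its first peak, from 118909436 to 118911537, lay at the start of the gene on 2 exonic blocks of 102 and 137 bases. The KO peak there kept the same upstream border and the whole 102-base block, and covered 180 of the 239 WT bases. The second peak joined blocks of 200 and 99 bases, from 118505662 to 118513349. The KO peak held all 299 of its bases and reached 60 bases further, 5 of them on another block far upstream, at 118610159 to 118610163.

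The third Rbfox3 peak, from 118490088 to 118491251, was with 1164 exonic bases the widest WT peak of the 10 genes, and its deposited score was listed as 0, the smallest value. In the KO list 2 separate peaks of 269 and 150 bases stood in its place, near its upstream and its downstream border, each ending 30 bases inside it. They covered 419 bases, 36.0% of the WT peak, and left 685 bases between them without a KO peak. Over the gene, peaks covered 1702 exonic bases in the WT list and 958 in the KO list, which is 56.3%.

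Rbfox1, a gene of 1527688 bases on chromosome 16, had 3 WT peaks and kept none. They lay far apart, near the start of the gene (5885302 to 5885512), further along it (7039602 to 7039782, at 75.6% of the span) and near its end (7411641 to 7411761). The KO list held 1 Rbfox1 peak of 211 bases, from 7408705 to 7408915, which lay 2725 bases upstream of the last WT peak and touched none. Rbfox2, on chromosome 15, had a WT peak of 330 bases on 3 exonic blocks of 249, 51 and 30 bases, spread over 91923 bases of the gene from 77153597 to 77245519, and no KO peak. The 3 RBFOX genes thus differed in what was listed, although the lists do not say how strongly each was expressed.

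Among the ELAVL genes peaks were concentrated in Elavl3, which encodes HuC. Elavl3 (chromosome 9 from 22015005 to 22052146, minus strand) had 5 WT peaks. The peak at its start had its upstream border exactly on an annotated transcript start, at 22052023, inside the gene span. Then came peaks of 180 bases (22018356 to 22018535), 539 bases (22017518 to 22018056), 90 bases (22016202 to 22016291) and 300 bases (22015065 to 22015364) toward the gene end. The second and the third were retained, and the first and the last 2 were lost. Both KO peaks were wider than their WT counterparts. The KO peak over the second was 240 bases wide, shared its downstream border and reached 60 bases further upstream. That over the third was 569 bases wide, shared its upstream border and reached 30 bases further downstream. Elavl3 had 1349 exonic bases in WT peaks and 809 in KO peaks, 60.0%, the highest of these shares among the 9 genes with a WT peak. Elavl2, which encodes HuB, had 1 WT peak of 180 bases on chromosome 4 from 91253232 to 91253411, and it was lost. Elavl4, which encodes HuD, had no peak, and a gene without a listed peak is not shown to lack m6A.

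Celf4 and Celf5 both had 4 WT peaks, arranged in different ways. In Celf4 (chromosome 18, minus strand) they lay along the whole gene, with midpoints at 0.261%, 27.1%, 99.3% and 99.7% of its span. The first, of 721 bases from 25753437 to 25754157, was retained by a KO peak of 571 bases with the same upstream border, which covered 79.2% of it. The third ran over 4 exonic blocks of 37, 37, 85 and 472 bases, and the KO peak of 211 bases lay inside the 472-base block alone and covered 33.4% of the whole. A narrow second peak of 61 bases on 2 blocks and the last peak, of 241 bases, were lost. In Celf5 (chromosome 10, minus strand) all 4 WT peaks stood in a row between 81460427 and 81461837, with gaps of 209, 299 and 209 bases. The KO list held 1 peak of 61 bases, from 81460427 to 81460487, at the downstream edge of the last of them. It covered 18.4% of that 331-base WT peak, and its score was weak, with 3259 of the 3673 KO peaks having a smaller one. Peak bases in the KO list came to 47.3% of those in the WT list for Celf4 (782 and 1654 bases) and to 8.79% for Celf5 (61 and 694 bases).

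Nova2 kept part of its peaks and Nova1 none. Nova2 (chromosome 7 from 18925888 to 18965319, plus strand) had 6 WT peaks and kept the third and the last. The third WT peak ran from 18958293 to 18958712 over 420 bases. The KO peak started at the same base and ended after 181 bases. At the last, the WT peak ran over 151 bases from 18964362 to 18964512 and the KO peak over 270 bases from the same start. Within their own lists the last WT peak was among the weaker ones, with 12190 of 15009 peaks having a smaller score, while its KO counterpart had 479 of 3673 peaks with a smaller score. The 4 lost Nova2 peaks were of 91, 330, 300 and 210 bases. Nova1 (chromosome 12 from 46697895 to 46819480, minus strand) had 2 WT peaks 239 bases apart near the gene end, of 181 and 271 bases, and both were lost. Its KO peak, of 121 bases from 46818647 to 46818767, lay near the opposite end of the gene, 117809 bases from the nearest WT peak. It was among the weakest of the KO list, with 3575 of 3673 peaks having a smaller score.

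The lost Elavl3 peak at the gene start and the KO peak of Nova1 were the only peaks found to reach an annotated start window of RefSeq (GRCm38.p6, minus strand for both genes). Each began at exactly that start. No start window was at hand for Rbfox2 and Celf4, so their peaks could not be checked. The stretch around each start is shown because it is the part of these peaks whose sequence was at hand. Capitals mark the first 30 bases from each start, all inside the peak, and lower case the 30 bases upstream of it. The starts are at 22052023 for Elavl3 and at 46818767 for Nova1. Both lie inside the annotated gene spans, which begin further upstream, at 22052146 and 46819480. The lower-case bases are therefore also within those spans. The Elavl3 stretch is chr9:22051994-22052053 and the Nova1 stretch is chr12:46818738-46818797.
Elavl3: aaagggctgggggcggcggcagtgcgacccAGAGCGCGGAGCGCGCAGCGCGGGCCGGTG
Nova1: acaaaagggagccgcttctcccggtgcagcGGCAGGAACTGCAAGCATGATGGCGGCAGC
The first base from this start is A for Elavl3 and G for Nova1, as in 34.4% and 35.6% of the 32851 start windows. GGAC, the core of the commonest form of the m6A consensus, did not occur in the first 50 bases from either start on either strand. Nor did GGACT, which contains it. Other forms of the consensus were not counted, and the Nova1 capitals hold such a form, GAACT. On the transcript strand GGAC occurs in 18.9% of the windows and GGACT in 5.76%, and on the other strand in 17.4% and 4.87%. These letters cover only the first 50 bases of peaks of 240 and 121 bases. Of all peaks, 2.29% in the WT list and 1.99% in the KO list had their upstream border on an annotated start.

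**Figure D2:**
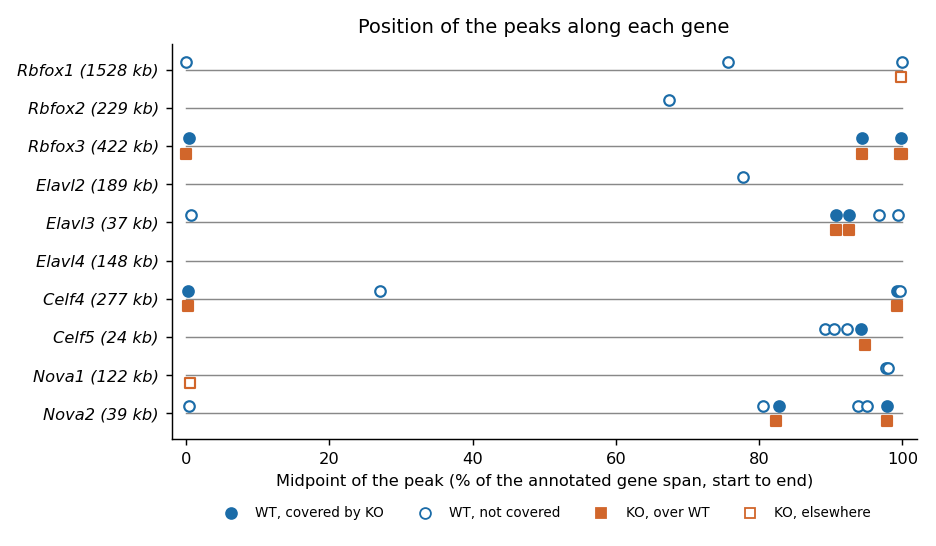
Midpoints of the peaks of each gene as a percentage of its annotated span (x axis, gene start at 0), with WT peaks as circles above the line and KO peaks as squares below it; filled symbols are peaks covered in the other list. Most peaks stand at the right, and the KO peak of Nova1, at 0.636%, stands at the opposite end from its WT peaks.

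Peaks of these genes lay toward the gene end about as often as peaks in general. Of the 29 WT peaks, 17 were centred within 5000 bases of the gene end, beside 57.2% of all WT peaks, and 6 of these 17 were retained, beside 9.73% of all WT peaks in that window. Within 1000 bases there were 5, beside 16.5%, in Rbfox1, Rbfox3, Elavl3, Celf4 and Nova2, and those of Rbfox3 and Nova2 were retained, beside 6.97% of all WT peaks there. Within 1000 bases of the gene start, again by midpoint, there were 4, beside 11.7%, in Rbfox1, Elavl3, Celf4 and Nova2. Of these only that of Celf4 was retained, beside 14.5% of all WT peaks there. The retained first WT peak of Rbfox3 also began near the gene start. It is not counted, since its midpoint fell on its second block, 2042 bases away. The midpoint of the KO peak over it lay 149 bases away. Of the 13 KO peaks, 3 lay within 1000 bases of the gene start, in Rbfox3, Celf4 and Nova1, beside 11.6% of all KO peaks, and the first 2 lay over a WT peak. In the KO list 8 of 13 peaks lay within 5000 bases of the gene end, beside 48.9% of all KO peaks. These distances come from the outer ends of the gene span and do not tell coding from untranslated sequence.

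**Figure D3:**
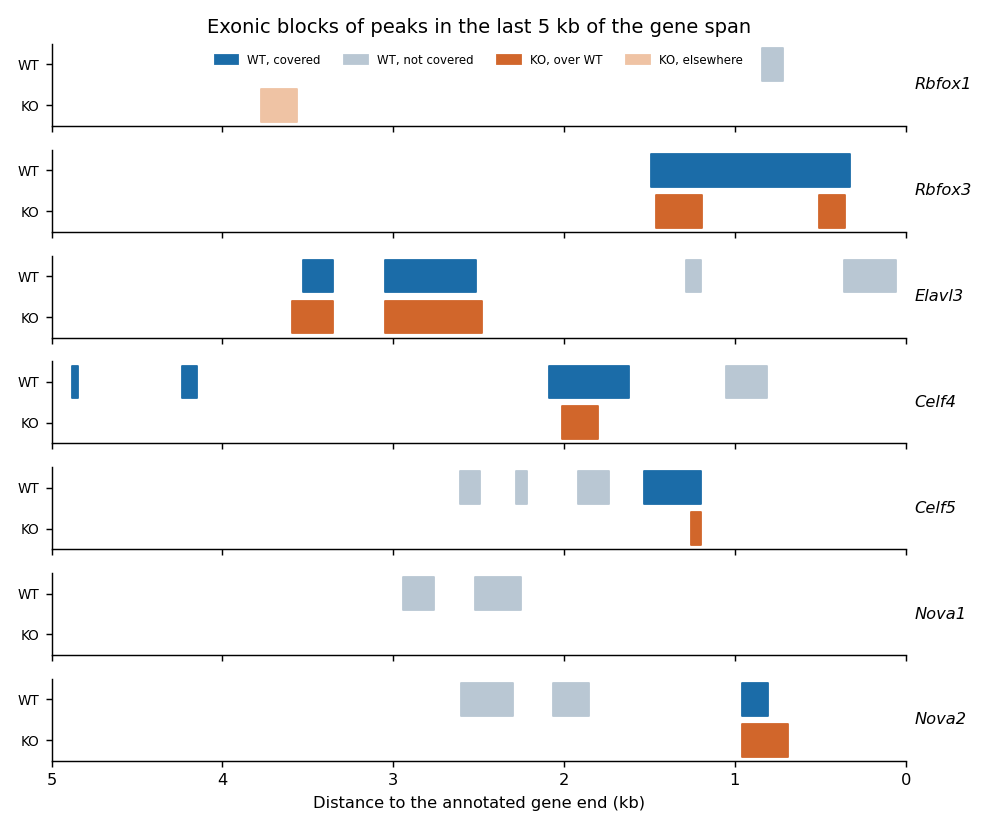
Exonic blocks of WT peaks (upper bars) and KO peaks (lower bars) against the distance to the annotated gene end in kb, for the 7 genes with a peak midpoint in the last 5 kb (blocks farther from the end are not drawn). The wide WT peak of Rbfox3 stands over 2 separate KO peaks, and the retained pairs of Elavl3 nearly coincide. Of the 4 WT peaks of Celf5 only that nearest the gene end stands over a KO peak, of 61 bases.

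The 10 retained WT peaks and the 11 KO peaks over them formed 11 overlapping pairs. In 7 pairs the KO peak lay wholly inside the WT peak, and in the other 4 the WT peak lay wholly inside a wider KO peak. How often 1 peak lies wholly inside the other over all pairs is not at hand. Wider KO peaks were those of Rbfox3 (359 against 299 bases), of Elavl3 (240 against 180, and 569 against 539) and of Nova2 (270 against 151), beside 9.68% of the 2107 overlapping pairs in both lists. In 8 of the 11 pairs the peaks had an outer border in common, beside 27.5% of all pairs. Widths mostly came in steps of 30 bases. Of the 34 peaks on 1 block in these genes, 88.2% had a width that was a multiple of 30 bases or 1 base more, as did 79.9% of such WT peaks and 89.2% of such KO peaks in the whole lists. Whether the borders themselves lie on a common grid was not tested. The wide Elavl3 pair, of 539 and 569 bases, is among the exceptions. Summed over the 10 genes, exonic peak length was 8376 bases in the WT list and 3393 bases in the KO list, which is 40.5%, beside 16.6% for the whole lists.

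**Figure D4:**
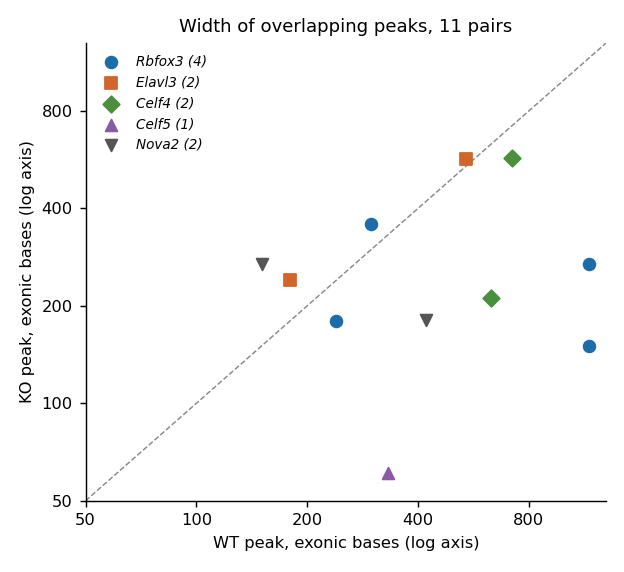
Exonic width of the KO peak (y axis) against that of the overlapping WT peak (x axis) for the 11 pairs, in bases on log axes, with the dashed line marking equal width. Of the points, 4 lie above the line, from Rbfox3, Elavl3 and Nova2, and the Celf5 pair (331 and 61 bases) is among the farthest below it.

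The retained WT peaks of these genes were wider than the lost ones, as in the whole list. Their median exonic width was 375.5 bases (from 151 to 1164) against 181 bases (from 61 to 330), where all retained and all lost WT peaks had medians of 359 and 181 bases. The difference of 194.5 bases shrank to 58 bases when at least 50% of the WT peak had to be covered, which leaves 6 of the 29 WT peaks retained, beside 6.83% of all WT peaks. On several exonic blocks lay 6 of the 29 WT peaks, in Rbfox2, Rbfox3, Celf4 and Nova2, beside 23.5% of all WT peaks. Of these 6, 3 were retained, beside 28.9% of all such peaks, and of the 23 peaks on 1 block 7 were, beside 7.97%.

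The score deposited with each peak was read as the p-value or q-value of the authors' peak caller, and it is used only to place peaks within their own list. In the strongest 20% of the WT list lay 13 of the 29 peaks of these genes. Of those 13, 6 were retained, beside 31.0% of all WT peaks in that class. In the following classes 2 of 5, 0 of 3, 1 of 4 and 1 of 4 were retained, beside 14.0%, 9.48%, 6.41% and 3.52%. A score listed as 0 was carried by 7 of the 29, beside 5.09% of all WT peaks. Of the 7, 5 were retained, beside 51.2% of all WT peaks with that score. The other 2, the 90-base peak of Elavl3 and the 61-base peak of Celf5 from 81461447 to 81461507, were narrow and lost. The retained peaks of weak score were the first of Rbfox3 and the last of Nova2.

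**Figure D5:**
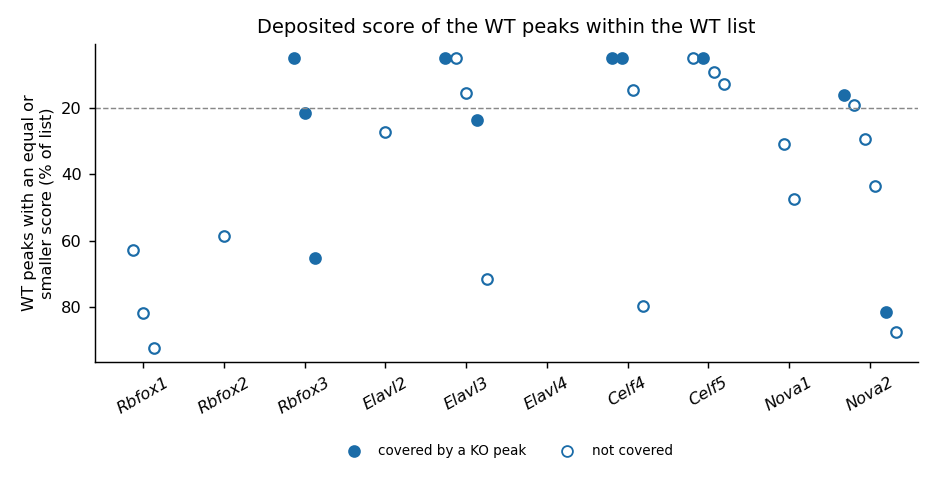
The share of the WT list with an equal or smaller deposited score (y axis, in %, strongest at the top) for each WT peak of each gene, with filled circles for peaks covered by a KO peak and the dashed line at 20%. All Celf5 peaks stand above the line, and Rbfox3 and Nova2 each have a filled circle in the lower part of the plot.

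Close relatives outside the 10 genes carried fewer peaks. Of 5 paralogues, 4 were listed in WT and only Celf3 kept any peak, beside 20.6% of all genes with a WT peak. Celf3 kept both of its WT peaks, with 210 exonic bases in either list. Celf1, Celf2 and Celf6 had 1 WT peak each, all lost, with a KO peak elsewhere in Celf2. Elavl1, which encodes the broadly expressed HuR, had no peak. Among 40 other RNA-binding regulators, not all of them neural, 17 were listed in WT and 6 of the 17 kept a peak, beside the same 20.6%. Of the rest, 3 had only a KO peak and 20 had none. The splicing regulator gene Srrm4 lost its 3 WT peaks and had no KO peak, as did Stau1, a gene for transport of RNA in dendrites, with 2. Khdrbs3 lost 2 and had a KO peak elsewhere. Cpeb4, for a regulator of cytoplasmic polyadenylation, kept 1 of 3 peaks, Srrm3 1 of 2 and Syncrip 1 of 4.

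The lists cannot show which cells were present, since they hold no expression levels, and markers can only be counted by their peaks. The counts below stand beside 20.6% of all genes with a WT peak that kept 1. Of 8 neuron markers 6 had a WT peak, and each of the 6 kept at least 1. Of 7 astrocyte markers 7 had a WT peak and 3 kept 1, and of 7 oligodendrocyte markers 6 had a WT peak and none kept 1. Of 6 microglia markers 4 had a WT peak and 1 kept it, and of 5 vessel markers the numbers were 4 and 1. What part cells with an intact Mettl14 had in the retained peaks was not tested. Mettl14 itself had 1 WT peak and no KO peak, which does not measure its deletion.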

How the data were processed

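The authors deposited a consensus list of m6A peaks per genotype, with position, strand, gene symbol, exonic blocks and a score. The deposited score was read as a p-value or q-value from its range, since no source says which. STAR and the build GRCm38 were used per the submitters' processing notes. Not given in the sources used here are the peak caller, its thresholds and how libraries were combined. Libraries were grouped by their titles. Entries sharing exonic bases on the same strand were merged, from 15091 to 15009 in WT and from 3733 to 3673 in KO, with no entry of the 10 genes among those merged. Overlap asked for 1 shared exonic base on the same strand. Coordinates count from 1. Gene spans came from a RefSeq table of GRCm38.p6, which holds all 10 genes and contains all 42 of their peaks. Start windows, of 250 bases before and 50 after a start, were at hand for 8 of the 10, without Rbfox2 and Celf4. Members and lists were chosen with earlier results of these data known, so nothing was tested. All 10 genes and 5 paralogues are named, and of 40 other genes the 3 with most WT peaks and none retained and the 3 with most retained (ties by WT exonic length). For each member with 3 or more WT peaks the gene with the same peak counts and the nearest exonic lengths is named. Overlap calls were checked on simulated lists of peaks on 1 block, so the check does not cover peaks on several blocks. Python 3.11.15 and SciPy 1.17.1 were used. The planned motif counts in peaks were not run, since no genome sequence was used.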

Additional observations from a re-analysis of the deposited data

How the results depend on the processing

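No paired analysis was possible because each genotype has a single pooled list, which also bars leaving out a replicate. Ignoring strand, whole spans, a gap of 100 bases, unmerged entries and autosomes with X alone moved none of the values recomputed under them by more than 1.5 times (only the count of retained WT peaks for the chromosomes, and not peak length or nearness to the gene end for the first 3). Asking for 50% of the WT peak left 6 of 29 WT peaks retained, beside 6.83% of all WT peaks. It left 6 of 13 KO peaks over a WT peak, with a width difference of 58 bases, and a retained peak in 4 of 9 genes. Among those no longer retained were the third Rbfox3 peak (36.0% covered) and the only retained Celf5 peak (18.4% covered). Rbfox3 thus no longer kept every WT peak. Asking for 50% of both peaks gave the same values, beside 6.26% of all WT peaks. The shares of all KO peaks and of all genes under these 2 rules are not at hand. With only the 3673 strongest WT peaks, as many as in KO, 8 of 15 WT peaks were retained, beside 28.6% of that list. They lay in 5 of 5 genes with a WT peak, and peak length in KO over WT was 0.608 in place of 0.405. For the shortened list no share over all genes and no length ratio over the whole lists is at hand, so these 2 values cannot be set against the list at large. The width difference was 298.5 bases, and 3 of the 15 WT peaks lay near the gene end. With the stronger 50% of each list the width difference was 329 bases, and 3 of 20 lay near the end. The share of all WT peaks near the end is not at hand for either shortened list. In the full list, 1 and 17 of the 29 WT peaks lay within 500 and 5000 bases of the end, beside 7.53% and 57.2% of all WT peaks. Without Rbfox3, a choice made after seeing the data, 7 of 9 KO peaks lay over a WT peak, beside 57.1% of all KO peaks. Of the WT peaks left, 7 of 26 were retained, beside 12.9% of all WT peaks. Depth is unknown, so a lost peak is one not detected in the KO list, not one shown to be absent.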

Other observations

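For each of the 10 genes with 3 or more WT peaks, the gene most like it in both lists was looked up, by the same numbers of WT, retained and KO peaks and then by the smallest difference in summed exonic peak length over the 2 lists. The pattern of Rbfox3 was shared by 3 other genes, of which Hnrnpul2 was nearest (595 bases apart in all), and that of Nova2 by 4, with Clmp nearest (384 bases). The pattern of Elavl3 was shared by 19 genes, with Sh3rf3 nearest (354 bases), and that of Celf4 by 31, with Sart1 nearest (178 bases). Commoner patterns were those of Rbfox1, shared by 55 genes with Clip3 nearest (30 bases), and Celf5, shared by 100 with Ppp1r13b nearest (28 bases).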
